A study of Mus musculus with 4 samples.

Results

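The 8 genes described here, Dag1, Pomt1, Pomt2, Pomgnt1, Pomgnt2, B3galnt2, B4gat1 and Adgrg1, encode dystroglycan, enzymes that glycosylate it and an adhesion receptor, all of which help to anchor radial glial endfeet to the basement membrane under the pia. They were chosen by name, with a rule that uses no measured value though earlier results of these data were known, and all 8 were found among the 45706 genes of the count table through their Ensembl identifiers in GENCODE release M21 (GRCm38). The series holds 4 RNA-seq libraries of 1 group, labelled medial basal radial glial cells of E18.5 mouse embryos (strain C57BL/6JOlaHsd, genotype Tubb-GFP/+, with DiI, a lipophilic membrane dye, in the sample names). Basal radial glia are progenitors that keep a process to the pia but do not reach the ventricle. The labels do not say how the GFP reporter and the dye were used for the isolation, or whether the libraries came from separate animals, so every SD and p-value here measures the spread between these 4 libraries, which may be technical. There is no second group, so levels are compared between genes and with fixed levels.

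Dystroglycan is a receptor made from 1 precursor that is cut into an extracellular alpha subunit and a membrane-spanning beta subunit. The alpha subunit binds laminin and other matrix proteins through a sugar chain, matriglycan, which is built on O-linked mannose by a series of enzymes in the endoplasmic reticulum and Golgi. In the developing cortex the bond holds radial glial endfeet to the pial basement membrane. Loss of the enzymes in humans causes dystroglycanopathies such as Walker-Warburg syndrome and muscle-eye-brain disease, in which gaps in that membrane let neurons migrate past the pia and give the cortical surface a cobblestone look. ADGRG1, also called GPR56, is an adhesion G protein-coupled receptor that binds collagen III; its loss causes bilateral frontoparietal polymicrogyria, a related malformation.

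The libraries held 26540656 to 34837657 counts each. Levels are given in TPM, a unit that scales reads by gene length and by library, here computed from the deposited counts and the length of each gene's merged exons. Markers of radial glia (8 of 8), neurons (6 of 6) and intermediate progenitors (4 of 4) were all called above 1 TPM. So were those of astrocytes (5 of 5, in part also radial glial genes) and the oligodendrocyte lineage (4 of 4). Of all genes tested 65.9% were also called above that level, and of the protein-coding ones 75.7%. From which cells a transcript came was not tested. The neuron markers had the highest sum of the 12 lists, 9364 to 10456 TPM. Radial glia markers summed to 5237 to 6293 TPM and basal radial glia markers to 334 to 438 TPM. Tubb3, at 6691 ± 496 TPM (SD, n = 4), made up most of the neuron sum. Fabp7, at 4631 ± 382 TPM, made up most of the radial glia sum. The lists differ in size and in such abundant genes, so their sums do not rank cell types. Of the 7 markers of basal radial glia 5 were above 1 TPM, among them Tnc at 264 ± 38.4 TPM and Hopx at 3.03 ± 0.414 TPM (SD, n = 4). Of the other 2, Pdgfd was called below 1 TPM (a call lost without replicate 1 and without replicate 3) and Fam107a was not called. With the authors' deposited TPM, tested with limma, 4 of the 7 were above and 3 below 1 TPM, and Hopx was at 0.573 TPM. Exons of Hopxos on the other strand cover 27.2% of the Hopx exons, so the level of Hopx is uncertain. The erythroid markers (5 of 5) summed to between 2112 and 3599 TPM, highest in replicate 2. Few markers of choroid plexus (1 of 4, Ttr) and mural cells (2 of 4) were above 1 TPM.

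All 8 genes were detected in all 4 libraries, over a wide range of levels. Each gene was tested against 1 TPM and against 10 TPM with edgeR's quasi-likelihood F test, adjusted over all 20991 genes with at least 10 counts, and a gene is called above or below a level where the adjusted p is under 0.05. All 8 were called above 1 TPM, a level that 65.9% of all genes tested and 75.7% of the protein-coding ones were also called above. Above 10 TPM there were 5 of the 8, against 35.2% of all genes tested and 45.2% of the protein-coding ones. Below 10 TPM there were 3 of the 8, against 58.0% and 48.7%. With the authors' deposited TPM, tested with limma, 3 of the 8 were above 10 TPM and 1 was below 1 TPM. The median of the 8 mean levels was 15.4 TPM. The same median was 4.79 TPM over all genes tested and 8.997 TPM over the 15401 protein-coding ones.

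The order of the mean levels was Adgrg1, B4gat1, Pomgnt2, Pomt1, Dag1, Pomgnt1, Pomt2 and B3galnt2, from high to low. Of the 28 pairs of genes, 25 stood in the same order in all 4 libraries. The other 3 pairs are those among Pomgnt2, Pomt1 and Dag1, in each of which each gene was the higher in 2 of 4 libraries, so these neighbours did not differ beyond their spread. On the log2(TPM + 1) scale, Dag1 minus Pomt1 was -0.03 ± 0.13 (SD, n = 4), Dag1 minus Pomgnt2 -0.11 ± 0.51 and Pomt1 minus Pomgnt2 -0.08 ± 0.56 (exact two-sided sign-flip permutation p = 0.75 for each, adjusted 0.75 over the 28 pairs). With 4 libraries the smallest p of that exact permutation test is 0.13 (adjusted 0.14), which each of the 25 ordered pairs reached, so none could pass 0.05.

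**Figure D1:**
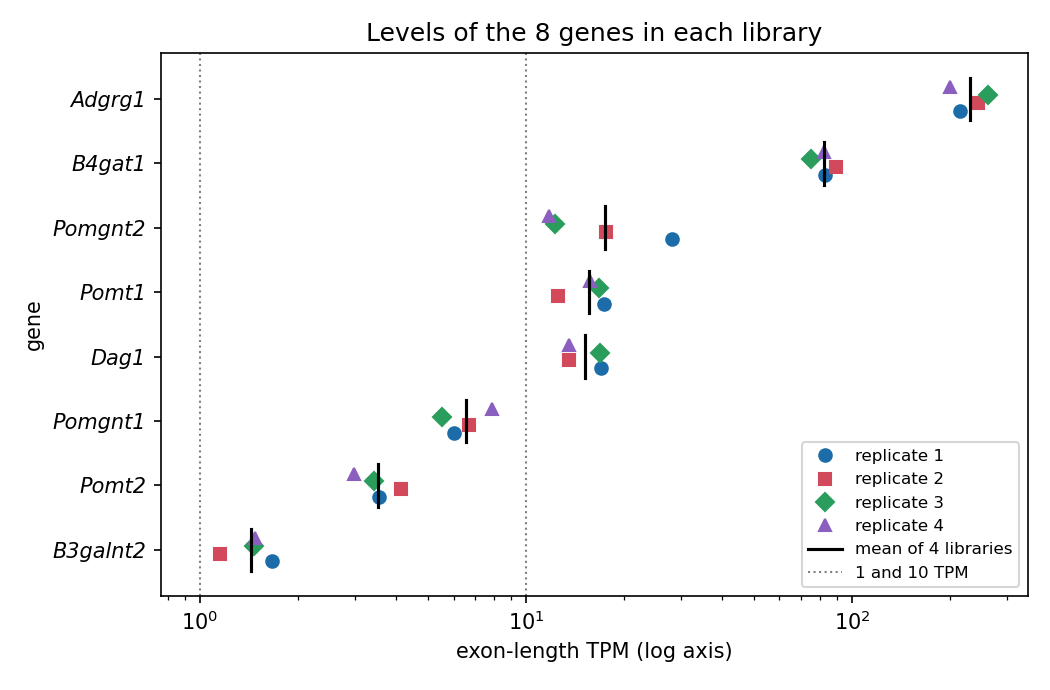
Exon-length TPM of the 8 genes (horizontal log axis) in each of the 4 libraries (symbols), with the mean as a vertical bar and dotted lines at 1 and 10 TPM. Adgrg1 lay between 199.9 and 262 TPM, while the ranges of Pomt1 (12.5 to 17.4 TPM) and Pomgnt2 (11.8 to 28.1 TPM) both held that of Dag1 (13.5 to 16.9 TPM).

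Dag1, which encodes dystroglycan itself (ENSMUSG00000039952; GRCm38 chromosome 9, 108204634 to 108263958, minus strand), was at a middle level. Its counts were 964, 973, 1030 and 709 in replicates 1 to 4, or 16.9, 13.6, 16.9 and 13.5 TPM. Replicates 1 and 3 were alike and above replicates 2 and 4, and all 4 lay above 10 TPM. The mean was 15.2 ± 1.93 TPM (SD, n = 4), at percentile 60.2 of protein-coding genes tested (edgeR adjusted p = 5.31e-05 against 10 TPM). With the deposited TPM, Dag1 was called below 10 TPM instead (log2 difference from 10 TPM -0.71, limma adjusted p = 0.000289). The 3 protein-coding genes nearest to Dag1 in level over the 4 libraries, by the root mean square difference of log2(TPM + 1), were Tmem160 (0.0317), Mepce (0.0373) and Pard6b (0.0414). They are genes of like level, and with 4 libraries of 1 group no further likeness was tested.

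The first sugar, mannose, is put on by a complex of the proteins of Pomt1 and Pomt2, and the libraries held these transcripts at unequal levels. Pomt1 (ENSMUSG00000039254; chromosome 2, 32236590 to 32255005, plus strand) was at 17.4, 12.5, 16.8 and 15.7 TPM in replicates 1 to 4. Pomt2 (ENSMUSG00000034126; chromosome 12, 87106861 to 87147968, minus strand) was at 3.55, 4.14, 3.43 and 2.96 TPM. The lowest Pomt1 library and the highest Pomt2 library were the same, replicate 2, and the ranges did not overlap. Pomt1 was 3.02-fold to 5.31-fold the level of Pomt2 within the libraries, a difference of 1.87 ± 0.32 in log2(TPM + 1) units (SD over 4 libraries; higher in 4 of 4). The means were 15.6 ± 2.17 and 3.52 ± 0.487 TPM (SD, n = 4), above and below 10 TPM in that order (edgeR adjusted p = 5.09e-05 and 2.70e-06). Exons of the opposite-strand gene Gstz1 cover 5.85% of the Pomt2 exons, and Gstz1 was itself at 36.0 ± 3.46 TPM (SD, n = 4). The library chemistry as described does not mark strand, so reads of the shared bases cannot be assigned.

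The enzymes of Pomgnt1 and Pomgnt2 each add N-acetylglucosamine to the mannose, in different linkages that start different chains. The chain begun by POMGNT1 is called core M1, and the chain begun by POMGNT2, core M3, is the one that carries matriglycan. Pomgnt1 (ENSMUSG00000028700; chromosome 4, 116123840 to 116159849, plus strand) was at 6.01, 6.68, 5.54 and 7.89 TPM, with replicate 4 highest. Its mean was 6.53 ± 1.02 TPM (SD, n = 4), below 10 TPM (edgeR adjusted p = 0.000685). Exons of Lurap1 on the other strand cover 11.7% of the Pomgnt1 exons, and Lurap1 was itself at 3.75 ± 0.808 TPM.

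Pomgnt2 (ENSMUSG00000066235; chromosome 9, 121981606 to 121997110, minus strand) varied most of the 8 genes. Its counts were 731, 575, 342 and 282, or 28.1, 17.6, 12.3 and 11.8 TPM in replicates 1 to 4. Replicate 1 stood highest, and replicates 3 and 4 were close to each other. The highest library was 2.39 times the lowest, against 1.19 to 1.44 times for the other 7 genes. Among the 11374 genes with a mean of at least 100 counts, 1.72% had a ratio as large, and the median ratio was 1.27. The SD was 43.6% of the mean, while counting error alone at its mean count would give 4.55%. The mean was 17.4 ± 7.60 TPM (SD, n = 4), above 10 TPM (edgeR adjusted p = 0.00150), a call lost with the deposited TPM (limma adjusted p = 0.646).

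Of 12 marker lists, 2 had a summed level in the same order over the libraries as Pomgnt2, and the other 10 did not. The summed level of the 6 endothelial markers, of which 2 were called above 1 TPM (0 without replicate 1, and 1 without replicate 2), was 7.11, 6.16, 5.17 and 4.02 TPM in replicates 1 to 4, and none of the 6 was without counts in any library. The summed level of the 4 intermediate progenitor markers, all above 1 TPM, was 1010.6, 1009.6, 950.1 and 910.2 TPM. Of its 4 genes 1, Gadd45g (581, 544, 483 and 437 TPM), ran in that order itself, while Btg2 was at 392, 434, 433 and 439 TPM, lowest where Pomgnt2 was highest. Of the 6 endothelial genes 1, Egfl7 (2.31, 2.16, 1.37 and 1.02 TPM), did. The part of these lists in the Pomgnt2 spread was not tested. In bulk libraries, more cells of a type and more RNA per cell cannot be told apart.

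**Figure D2:**
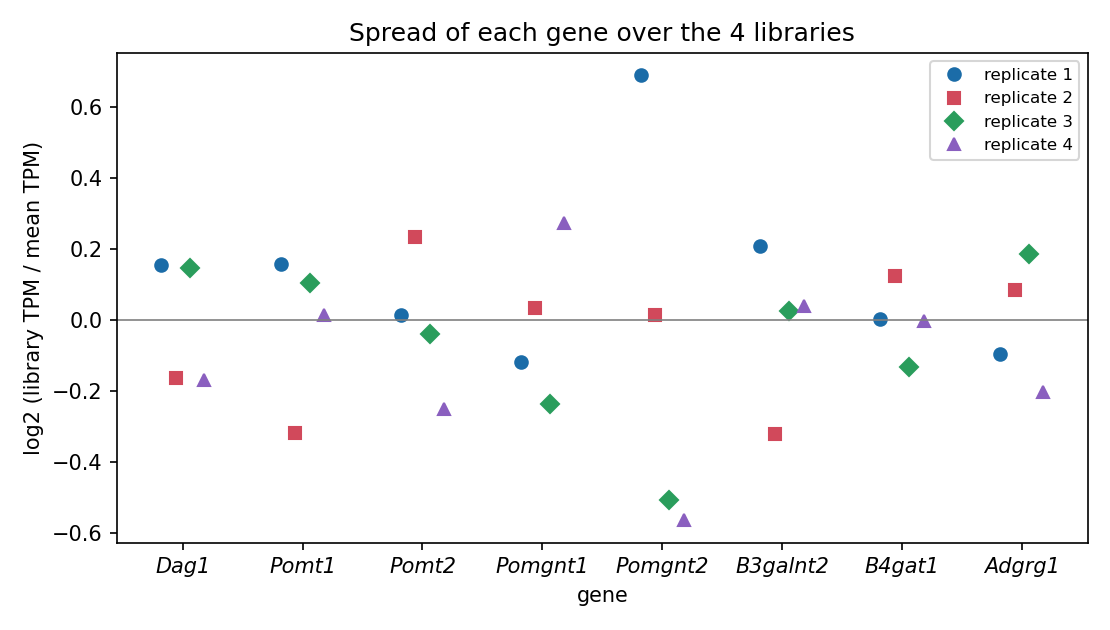
Deviation of each library from the gene's own mean, as log2 of library TPM over mean TPM (vertical axis), for the 8 genes, with one symbol per replicate. Pomgnt2 spans the widest range, from 11.8 to 28.1 TPM, and no replicate is highest for all genes.

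B3galnt2, whose enzyme adds N-acetylgalactosamine as the next sugar of core M3, was the lowest of the 8. The gene (ENSMUSG00000039242; chromosome 13, 13954469 to 13999103, plus strand) had 94, 82, 89 and 77 counts, or 1.66, 1.15, 1.46 and 1.48 TPM in replicates 1 to 4. Every library lay just above 1 TPM, and their 95% intervals from an exact Poisson calculation reached from 0.915 to 2.03 TPM, counting error only. The mean was 1.44 ± 0.211 TPM (SD, n = 4), at percentile 24.0 of protein-coding genes tested (edgeR adjusted p = 0.0131 against 1 TPM). Without replicate 1 the gene was no longer called above 1 TPM (edgeR adjusted p = 0.0670), and with the deposited TPM it was called below 1 TPM (limma adjusted p = 0.00599). Exons of Tbce and of the pseudogene Gm18856 on the other strand cover 9.20% of its exons. Tbce was itself at 44.6 ± 2.29 TPM (SD, n = 4), far above B3galnt2. Reads of the shared bases cannot be assigned, so the level of B3galnt2 is uncertain, and their part in its call was not tested.

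B4gat1, whose enzyme adds the glucuronic acid on which matriglycan is extended, was the most abundant of the enzyme genes among the 8. The gene (ENSMUSG00000047379; chromosome 19, 5038826 to 5041131, plus strand) had 1704, 2329, 1665 and 1563 counts, or 82.6, 89.7, 75.2 and 82.3 TPM. The 4 libraries were close together, with the highest 1.19 times the lowest. The mean was 82.4 ± 5.95 TPM (SD, n = 4), at percentile 87.7 of protein-coding genes tested and above 10 TPM (edgeR adjusted p = 6.44e-13). B4gat1 exceeded Pomgnt2, its neighbour in the order, 2.93-fold to 6.98-fold within the libraries. In GENCODE M21 a transcript that reads through into Brms1, AC124502.3, covers 85.3% of the B4gat1 exons on the same strand. Its identifier is absent from the rows of the count table used here, so reads of that transcript cannot be told from those of B4gat1.

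Adgrg1 (ENSMUSG00000031785; chromosome 8, 94974751 to 95014217, plus strand) was the highest of the 8 by exon length. Its counts were 10447, 14904, 13640 and 8930, or 215, 244, 262 and 199.9 TPM in replicates 1 to 4. Replicate 3 was highest and replicate 4 lowest, and no library of another of the 8 genes reached its lowest value. The mean was 230.4 ± 27.9 TPM (SD, n = 4), at percentile 95.4 of protein-coding genes tested and above 10 TPM (edgeR adjusted p = 2.98e-15). Within the libraries Adgrg1 was 12.7-fold to 18.0-fold the level of Dag1 and 2.43-fold to 3.48-fold that of B4gat1. The 8 radial glia markers had mean levels from 19.1 TPM (Nes, the intermediate filament protein nestin) to 4631 TPM (Fabp7, a fatty acid binding protein), a range that holds Adgrg1. The protein-coding genes nearest in level over the 4 libraries were Ier3 (root mean square log2 difference 0.0738), Sparcl1 (0.0912) and Polr2e (0.0933).

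Adgrg1 is known in radial glia, and also in microglia and oligodendrocyte precursors. The summed level of the 8 radial glia markers, all above 1 TPM, was 5237, 5886, 6293 and 5620 TPM in replicates 1 to 4. Like Adgrg1 it was highest in replicate 3, but its lowest library was replicate 1. Fabp7 made up most of that sum, at 4155, 4691, 5084 and 4593 TPM. Mfge8 (474, 528, 552 and 447 TPM) and Glul (65.7, 67.1, 71.7 and 54.7 TPM) ran in the order of Adgrg1, lowest in replicate 4. The other radial glia markers did not run in that order. The 7 microglia markers, of which 5 were above 1 TPM and 2 not called, summed to 39.3, 30.1, 37.0 and 17.9 TPM, lowest in replicate 4 as Adgrg1 was. The 4 oligodendrocyte lineage markers, all above 1 TPM, summed to 45.2, 37.9, 43.8 and 40.7 TPM. Which cells held the Adgrg1 transcripts was not tested.

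The starts of these genes are unlike in CpG number, which the choice of genes did not use. RefSeq promoter windows (GRCm38.p6) were matched for 7 of the 8 genes, all but B3galnt2, with 10 windows in all, and the 250 bases before each start were read. The median over all 32851 windows of the table was 6 CpG dinucleotides. The windows of Dag1 (21 and 36 CpG), Pomt1 (27), Pomt2 (22) and B4gat1 (23) lay well above it. Both Adgrg1 windows (4 each) lay below it, while Pomgnt2 had 8 and the Pomgnt1 windows 41 and 3. Of all windows 44.4% had at most 4 CpG. In GC content the Adgrg1 windows (60.8% and 59.2%) lay above the median of all windows (52.4%), near Pomt1 (60.0%) and Pomt2 (62.4%). The GC box GGGCGG, read on both strands, was in 4 of the 10 windows, 2 of Dag1, 1 of Pomt2 and 1 of Pomgnt1, against 32.7% of all windows. The 2 Dag1 windows overlap, from base 108263959 to 108264065, and hold the same 3 GC boxes, so they do not count as separate windows. The TATA box TATAAA, also on both strands, was in 1, of Pomgnt1, against 12.4%. No match says only that these letters are not in these 250 bases.

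To show the contrast in CpG, the sequence before the most upstream start of the RefSeq table is given for 3 genes. They are Dag1 and B4gat1, the most abundant enzyme gene of the 8, both rich in CpG, and Adgrg1, the highest of the 8, below the median in CpG. Each is written 5′ to 3′ on the gene's strand, with CpG in capitals and without bases that GENCODE places in an exon, which leaves 134 of the 250 bases for Adgrg1, ending 116 bases before the start. The regions are chr9:108263959-108264208 (minus), chr19:5038576-5038825 (plus) and chr8:94976859-94976992 (plus), in that order. They hold 21, 23 and 2 CpG. The Adgrg1 region lies inside the gene as GENCODE draws it, whose first base is further upstream.
Dag1: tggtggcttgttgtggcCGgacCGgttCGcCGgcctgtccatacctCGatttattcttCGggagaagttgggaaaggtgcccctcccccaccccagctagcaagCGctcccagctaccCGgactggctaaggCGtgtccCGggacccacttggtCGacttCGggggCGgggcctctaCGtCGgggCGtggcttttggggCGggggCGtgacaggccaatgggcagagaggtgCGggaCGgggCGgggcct
B4gat1: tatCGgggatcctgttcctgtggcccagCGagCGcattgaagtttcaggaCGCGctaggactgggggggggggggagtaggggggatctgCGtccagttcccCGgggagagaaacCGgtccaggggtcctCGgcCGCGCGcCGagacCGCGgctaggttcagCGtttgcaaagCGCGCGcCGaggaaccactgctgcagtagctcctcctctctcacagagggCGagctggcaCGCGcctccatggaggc
Adgrg1: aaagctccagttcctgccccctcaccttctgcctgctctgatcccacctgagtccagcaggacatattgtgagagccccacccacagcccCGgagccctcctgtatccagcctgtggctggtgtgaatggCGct

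The levels depend on the length a count is divided by. The deposited TPM table follows the whole gene span, introns included: for 94.0% of 7133 genes with a mean deposited TPM of at least 5, the ratio of count to TPM lay within 0.01 (log2) of 1 constant times the span, against 0.463% with merged exons. The merged exons of B4gat1 fill its whole annotated span of 2306 bases, whereas Adgrg1 spans 39467 and Dag1 59325 bases. In the authors' deposited table B4gat1 was first, at 289 ± 20.9 TPM (SD, n = 4), and Adgrg1 second, at 111 ± 13.6 TPM. On that scale B4gat1 exceeded Adgrg1 by 1.38 ± 0.22 (log2(TPM + 1), SD, n = 4), in all 4 libraries; on the merged exon scale B4gat1 minus Adgrg1 was -1.47 ± 0.22. Dag1 was at 5.73 ± 0.724 and B3galnt2 at 0.716 ± 0.104 deposited TPM, under 10 and under 1 TPM. With the longest transcript as length, Adgrg1 stayed first, at 261 ± 31.7 TPM, and B4gat1 second, at 64.7 ± 4.62 TPM, while Pomt1, at 22.8 ± 3.18 TPM, lay above Pomgnt2 in all 4 libraries.

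**Figure D3:**
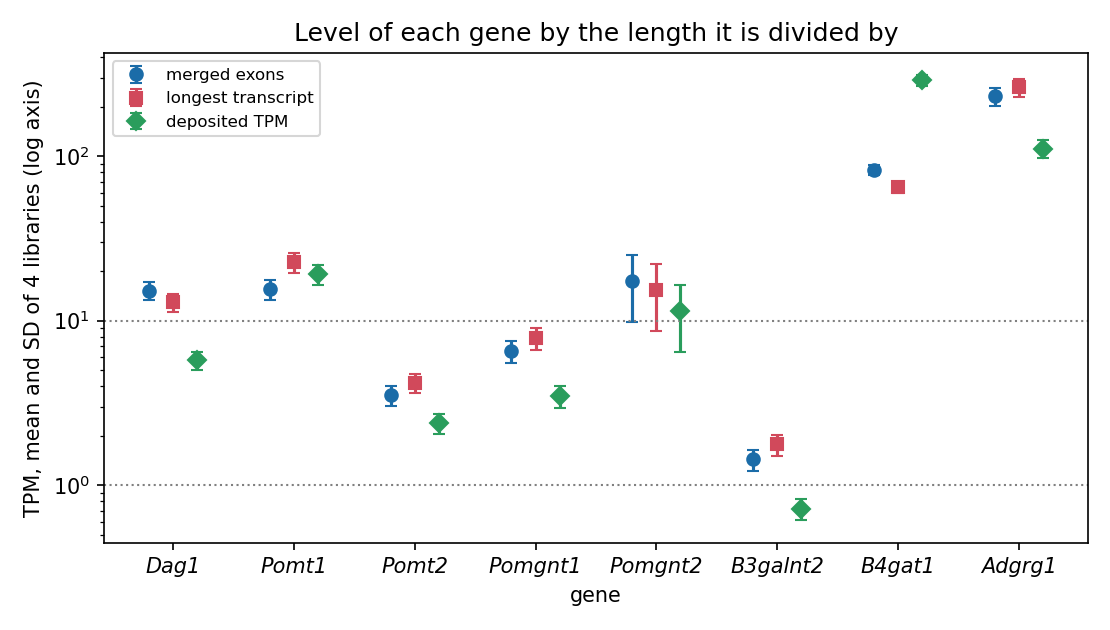
TPM of the 8 genes (vertical log axis) as mean and SD of 4 libraries, with the count divided by merged exons, by the longest transcript, or as deposited by the authors; dotted lines mark 1 and 10 TPM. Adgrg1 and B4gat1 change places between the merged exon scale (230.4 and 82.4 TPM) and the deposited one (111 and 289 TPM).

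Of 18 other genes of dystroglycan glycosylation, 15 were called above 1 TPM, 1 below it, and 2 neither way (65.9% and 12.1% of all genes tested lay above and below). With TMM scaling, DESeq2 size factors, the DESeq2 test, no filter or the deposited values, and without replicate 3, 2 were called below 1 TPM. The median of the list was 19.0 TPM. Above 10 TPM there were 10 of the 18, against 35.2% of all genes tested and 45.2% of the protein-coding ones. The highest were 2 subunits of the synthase that makes dolichol phosphate mannose, the mannose donor, Dpm2 at 166 ± 9.06 TPM and Dpm3 at 134 ± 9.36 TPM (SD, n = 4), and Gmppa, a subunit of the complex that makes GDP-mannose, at 80.5 ± 4.91 TPM.

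Among the later enzymes of the pathway, Pomk, the kinase that phosphorylates the core M3 mannose, was at 65.0, 57.6, 56.6 and 62.5 TPM in replicates 1 to 4. Its 4 libraries were close together and above every library of Pomgnt2 and B3galnt2, whose enzymes act before it. Rxylt1, which adds the xylose that B4GAT1 extends, was at 6.28 ± 0.472 TPM (SD, n = 4), and Mgat5b, which branches O-mannose chains in brain, at 26.1 ± 2.60 TPM. Large2, which encodes a polymerase of matriglycan, was at 0.651, 0.228, 0.196 and 0.187 TPM, below 1 TPM (edgeR adjusted p = 0.00764), with replicate 1 apart from the rest.

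Of 14 genes of the dystrophin complex, which links dystroglycan to the cytoskeleton, 8 were above 1 TPM, 5 below, and 1, Sgcz, had too few counts to test. Of all genes tested 65.9% lay above 1 TPM and 12.1% below. The median was 1.52 TPM. The highest were the sarcoglycan genes Sgcb at 17.0 ± 2.02 TPM and Sgce at 13.6 ± 0.774 TPM and the alpha-dystrobrevin gene Dtna at 10.6 ± 0.640 TPM (SD, n = 4). The sarcoglycan gene Sgca, known from muscle, was at 0.177 ± 0.160 TPM and called below 1 TPM. The giant gene Dmd, encoding dystrophin, was at 4.63 ± 0.886 TPM and its relative Utrn at 1.32 ± 0.367 TPM. On the deposited scale 5 of the 14 were above and 8 below 1 TPM.

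Of 14 genes for dystroglycan ligands or their subunits, 8 were above 1 TPM, 3 below and 2 neither way, and Lamc3 had too few counts to test. The shares over all genes tested were again 65.9% above and 12.1% below. The median was 2.63 TPM. Agrn, the proteoglycan agrin, was at 27.7 ± 0.961 TPM and Lamb1, a laminin beta chain, at 11.1 ± 1.17 TPM (SD, n = 4). Lama4 and the perlecan gene Hspg2 were called below 1 TPM, at 0.336 ± 0.151 and 0.387 ± 0.0882 TPM. On the deposited scale these counts were 5 above and 6 below 1 TPM.

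Of 9 genes of the pial basement membrane and of integrin anchorage, 5 were above 1 TPM, 3 below and 1, Col4a1, neither way, against 65.9% above and 12.1% below of all genes tested. The median of the list was 1.68 TPM. The integrin beta subunit gene Itgb1 was at 65.5 ± 5.44 TPM, Ptk2, which encodes focal adhesion kinase, at 17.8 ± 1.23 TPM and Itga6 at 6.61 ± 1.15 TPM (SD, n = 4). Col4a2, a collagen IV chain, was at 0.463 ± 0.2497 TPM. The lowest was Ilk, integrin-linked kinase, at 0.217 ± 0.0976 TPM, but exons of Rrp8 and Taf10 on the other strand cover 89.7% of its exons, so that value is uncertain. Without replicate 1, 1 gene of this list was called below 1 TPM in place of 3, and on the deposited scale 5 were.

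The partners of ADGRG1 fell into G proteins, Rhoa and tetraspanins at high levels and a pair of ligand genes at very low levels. Of the 8 genes, 6 were above 10 TPM and 2 below 1 TPM, against 35.2% and 12.1% of all genes tested. The tetraspanin genes Cd81 and Cd9 were at 436 ± 17.0 and 240.0 ± 17.6 TPM and the G protein gene Gnaq at 383 ± 18.9 TPM (SD, n = 4). The ligand gene Col3a1, for collagen III, had 0, 19, 0 and 3 counts in replicates 1 to 4. A count of 0 allows up to 0.0342 TPM in replicate 1 and 0.0318 TPM in replicate 3. Tgm2, the transglutaminase that also binds the receptor, was at 0.349 ± 0.190 TPM. Exons of Rprd1b and Gm20412 on the other strand cover 21.8% of the Tgm2 exons, so that value is uncertain. Without replicate 2, and likewise without replicate 3, only 1 of the 2 ligand genes Col3a1 and Tgm2 was called below 1 TPM. Collagen III is made by meningeal fibroblasts. Of 8 meningeal markers 2 were above 1 TPM, 4 below and 2 neither way, against 65.9% above and 12.1% below of all genes tested. Their summed level was 6.49 to 8.39 TPM. Without replicate 1, and likewise without replicate 3, 2 of the 8 were called below 1 TPM. Among these markers Aldh1a2 and Slc6a13 had no count in replicate 2.

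The other Adgrg receptor genes were at very low levels. None of the 6 was above 1 TPM, and 3 were called below it, Adgrg2, Adgrg3 and Adgrg6, while 3 had under 10 counts in all (Adgrg4, Adgrg5 and Adgrg7). Of all genes tested 65.9% lay above 1 TPM and 12.1% below. Adgrg5 and Adgrg3 flank Adgrg1 on chromosome 8. Adgrg5 had no count in any library, which allows up to 0.116 TPM in the shallowest. Adgrg3 was at 0.0736 ± 0.107 TPM and Adgrg6 at 0.148 ± 0.107 TPM (SD, n = 4). Without replicate 2, 1 of the 6 was called below 1 TPM.

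**Figure D4:**
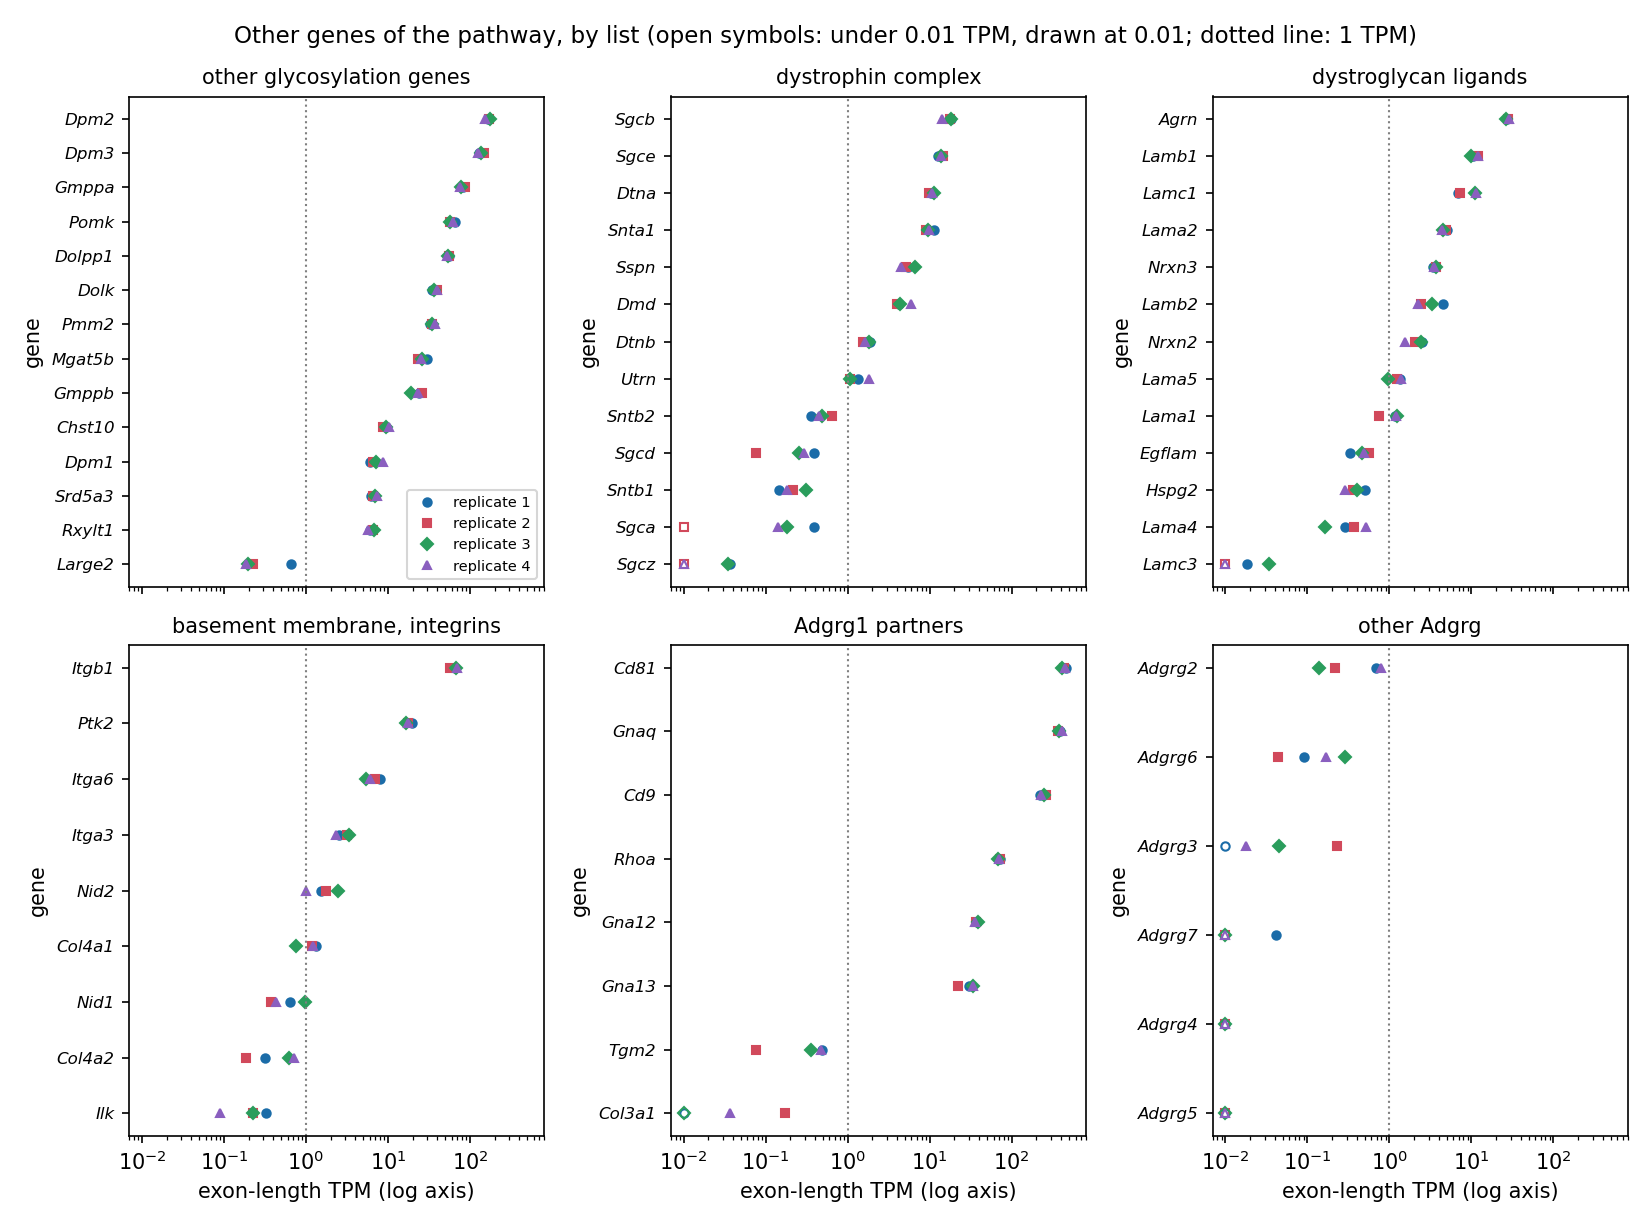
Exon-length TPM (horizontal log axis) of the other pathway genes in each library, in 6 panels by list, leaving out the genes not reported here, with the dotted line at 1 TPM and values under 0.01 TPM drawn as open symbols at 0.01. Most glycosylation genes drawn lie right of the line (of the full list 15 of 18 were called above it), while the other Adgrg genes all lie left of it.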

How the data were processed

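RNA was measured by RNA-seq in 4 libraries of 1 group. Per the labels' protocols, cDNA was primed with tailed poly-dT, template-switched, amplified, sheared and made into Illumina libraries. Per the submitters' processing notes, bcl2fastq 2.19.1, STAR 2.5.2b and build GRCm38 were used; the read counter, strand setting and annotation were not given in the sources used here. Counts were deposited as whole, unnormalised numbers of reads per Ensembl gene. The deposited TPM table, made by the authors, covers 15648 genes.

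Exon-length TPM was computed from the counts with GENCODE M21, in which 45143 of 45706 identifiers matched; the 563 unmatched held 0.120% to 0.125% of the counts. The one-sample quasi-likelihood F statistic was computed from the fit of edgeR 4.0.16 (R 4.3.3), not by edgeR's own test function. The fit used, as offset, the count expected at 1 or 10 TPM, for genes with at least 10 counts. The p-values had Benjamini-Hochberg adjustment, and the test was tried on simulated data. Deposited TPM was tested with limma 3.58.1 on log2(TPM + 1), and DESeq2 1.42.0 was an alternative. Named were all 8 genes and, per list, the 3 highest genes above and the 2 lowest below 1 TPM; Nes, Hopx, Dmd, Utrn, Pomk, Rxylt1 and Mgat5b were named after their values were seen, and others to complete a count; some genes of the lists are counted but not reported here by name. The genes and lists were chosen by name, with earlier results of these data known. Intervals and limits for a count of 0 (3 counts) cover counting error only. Total counts of 26540656 to 34837657 set the precision.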

Additional observations from a re-analysis of the deposited data

Results flagged for a closer look

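Of 73 levels screened (the 8 genes and the named list genes, by library), 7 had 1 library apart from the others by Dixon's test for 4 values; chance flags about 1 in 20. None of the 8 anchorage genes was among them. Large2 was high in replicate 1 (gap over range 0.911; 0.651 TPM against 0.187 to 0.228), Sgcb low in replicate 4 (0.880; 14.0 TPM against 17.7 to 18.2), Btg2 low in replicate 1 (0.873; 392 TPM against 433 to 439) and Flt1 high in replicate 1 (0.871; 0.290 TPM against 0.123 to 0.145). The globin genes Hbb-bs (0.837), Hba-a1 (0.871) and Hba-a2 (0.850) were all high in replicate 2, and their reads can be shared among near-identical copies.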

How the results depend on the processing

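Of 176 recomputed results for single genes of the 8 against 1 and 10 TPM, 169 kept their direction and their side of the threshold, and of 95 recomputed counts 87 stayed within 1.5 times. The exceptions came from the deposited TPM (limma), apart from the loss of the B3galnt2 call without replicate 1. With pseudocounts 1 and 0.1, B3galnt2 turned to -0.22 and -0.44 (log2 against 1 TPM; limma adjusted p = 0.00599 and 0.0170) and Dag1 to -0.71 and -0.80 (against 10 TPM; adjusted p = 0.000289 and 0.000230). Pomgnt2 was no longer called above 10 TPM (0.10, adjusted p = 0.646, and 0.10, adjusted p = 0.653). With either pseudocount 1 of the 8 was below 1 TPM in place of 0, and 3 in place of 5 were above 10 TPM. Below 1 TPM were then 26 in place of 17 of the pathway list genes and 17 in place of 10 of the marker genes. That setting changes the length, the test and the set of genes at once, and the cause was not tested. TMM scaling, DESeq2 size factors, the DESeq2 test, no filter and the longest transcript moved none of these counts by over 1.5 times; 42 of 396 recomputed counts of single lists moved by more. Of the 28 pairs, 25 had 1 order in every library (25 to 28 under the alternatives), and 26 to 28 kept the sign of their mean difference under each alternative. Mean differences that turned were among Pomgnt2, Pomt1 and Dag1, and B4gat1 against Adgrg1 on the deposited scale. No paired analysis was possible because there is 1 group. B3galnt2, with 77 to 94 counts, is limited most by depth among the 8.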
